A study of Homo sapiens with 2 samples.

Results

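The genes described here encode RNA polymerase I, its initiation factors and proteins that assemble ribosomal subunits in the nucleolus. They were chosen by name: 46 gene symbols were looked up in the deposited expression table, and all 46 were found, 1 record each, among 11420 protein-coding records. The table came from mRNA-seq of HCT116, a human colorectal carcinoma cell line, and addressed which mRNAs depend on LAST, a long noncoding RNA induced by the transcription factor c-Myc. One library was from cells infected with lentivirus carrying LAST shRNA, and the other was from cells infected with lentivirus carrying a control shRNA. Total RNA was taken 96 hr after infection in both, and the methods of the study name the knockdown construct as LAST shRNA-1. With 1 library per group, no difference below has a replicate check. Tests, SDs and p-values are therefore left out. The level of LAST was not analysed here and therefore does not check the label of the library.

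Cells make ribosomes in the nucleolus. RNA polymerase I transcribes a long precursor that holds most of the ribosomal RNAs. Small nucleolar RNAs, carried in box C/D or box H/ACA ribonucleoproteins (snoRNPs), guide methylation and pseudouridylation of the precursor, and a large set of assembly factors folds and cuts it into the small and the large subunit. These genes are classical targets of c-Myc, and fast-dividing carcinoma cells express them at high levels.

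Levels are given as FPKM (fragments per kilobase of transcript, scaled to the mapped fragments of the library), a unit scaled to transcript length, so that levels can be set side by side between genes. Log2 ratios are differences of log2(FPKM + 1), LAST shRNA cells minus control shRNA cells, and each fold is a ratio of the FPKM values. The study's scale was used to count genes: lower means a ratio of at most -0.58, and higher a ratio of at least 0.58.

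The promoters of these genes often held CACGTG, the canonical E-box that c-Myc and several other factors bind. Promoters were available for 40 of the 46 genes, as the 250 bases before and 50 bases after the RefSeq start in GRCh38.p14. CACGTG reads the same on both strands, so 1 search covered both, and it was looked for with no other motif. It stood in 16 of the 40 promoters (40.0%), against 932 of 8846 promoters of genes in the whole table (10.5%) and 2548 of 35116 RefSeq promoters (7.26%). The shares of these genes and of the table count 1 promoter per gene, while the RefSeq share counts every promoter entry. The motif also sat close to the start. In the stretch from 60 bases before to 30 bases after it, 13 of the 40 (32.5%) held CACGTG, against 4.41% of the promoters of genes in the table. A match describes the letters only and does not show that a factor is bound. The stretches below are shown because 8 of them hold the motif near the start, in genes that were lower (MRTO4), higher (WDR43) or between the thresholds, while 4 of them, from NHP2, NIP7, NCL and NPM1, do not hold it. Each is 90 bases of GRCh38.p14 written 5′ to 3′ along the gene, with CACGTG in capitals.
MRTO4, chr1:19251745-19251834, plus strand: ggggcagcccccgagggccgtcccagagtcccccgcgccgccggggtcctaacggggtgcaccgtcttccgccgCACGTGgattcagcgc
WDR43, chr2:28894607-28894696, plus strand: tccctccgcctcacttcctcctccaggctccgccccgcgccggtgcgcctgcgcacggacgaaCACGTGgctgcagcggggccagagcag
RRP9, chr3:51941875-51941964, minus strand: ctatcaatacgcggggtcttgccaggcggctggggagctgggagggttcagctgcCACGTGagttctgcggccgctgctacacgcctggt
FBL, chr19:39846350-39846439, minus strand: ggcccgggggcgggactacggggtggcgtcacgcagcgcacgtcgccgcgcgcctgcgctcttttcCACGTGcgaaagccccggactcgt
NOP10, chr15:34343107-34343196, minus strand: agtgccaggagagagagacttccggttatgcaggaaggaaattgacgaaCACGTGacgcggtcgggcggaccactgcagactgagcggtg
UTP20, chr12:101280045-101280134, plus strand: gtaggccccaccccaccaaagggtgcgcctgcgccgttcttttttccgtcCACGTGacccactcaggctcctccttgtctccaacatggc
NAT10, chr11:34105569-34105658, plus strand: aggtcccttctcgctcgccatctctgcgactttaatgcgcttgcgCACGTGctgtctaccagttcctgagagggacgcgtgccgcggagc
PES1, chr22:30591881-30591970, minus strand: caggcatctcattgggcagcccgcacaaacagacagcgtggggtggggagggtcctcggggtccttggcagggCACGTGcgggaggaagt
NHP2, chr5:178153856-178153945, minus strand: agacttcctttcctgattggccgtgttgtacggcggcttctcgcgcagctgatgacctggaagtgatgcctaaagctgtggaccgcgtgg
NIP7, chr16:69339712-69339801, plus strand: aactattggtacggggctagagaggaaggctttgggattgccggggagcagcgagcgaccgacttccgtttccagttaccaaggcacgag
NCL, chr2:231464455-231464544, minus strand: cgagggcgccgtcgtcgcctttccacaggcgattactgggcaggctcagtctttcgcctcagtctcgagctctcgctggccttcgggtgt
NPM1, chr5:171387789-171387878, plus strand: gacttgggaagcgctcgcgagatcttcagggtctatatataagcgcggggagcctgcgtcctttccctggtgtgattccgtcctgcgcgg

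Of the 46 genes, 40 lay between the thresholds and 6 were past them. NHP2, MRTO4 and NIP7 were lower in LAST shRNA cells, and RRS1, RRP1B and WDR43 were higher. In bulk RNA, fewer cells with an mRNA and less of it per cell cannot be told apart. The 3 lower genes are 6.52% of the 46, beside 5.88% of all records, and the 3 higher genes are also 6.52%, beside 6.8% of all records. Both shares lie near those of the whole table, so the counts are not a result about these genes. With a pseudocount of 0.1 the counts were again 3 and 3, while 8.75% of all records were lower and 10.9% higher. The median log2 ratio was -0.04, beside 0.01 for all records. Below 0 were 30 of the 46 (65.2%), beside 48.7% of all records. At a mean FPKM of at least 10, 65.9% of these genes were below 0, beside 52.7% of all records at that level. The interquartile range of the 46 ratios was 0.17, beside 0.38 for all records, and 20 genes (43.5%) lay within 0.1 of 0, beside 28.9% of all records. All 46 genes were above the median level of the table in both libraries, and 39 reached an FPKM of 10 in both. Their summed FPKM was 1.28% of the table's total in LAST shRNA cells and 1.33% in control shRNA cells.

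**Figure D1:**
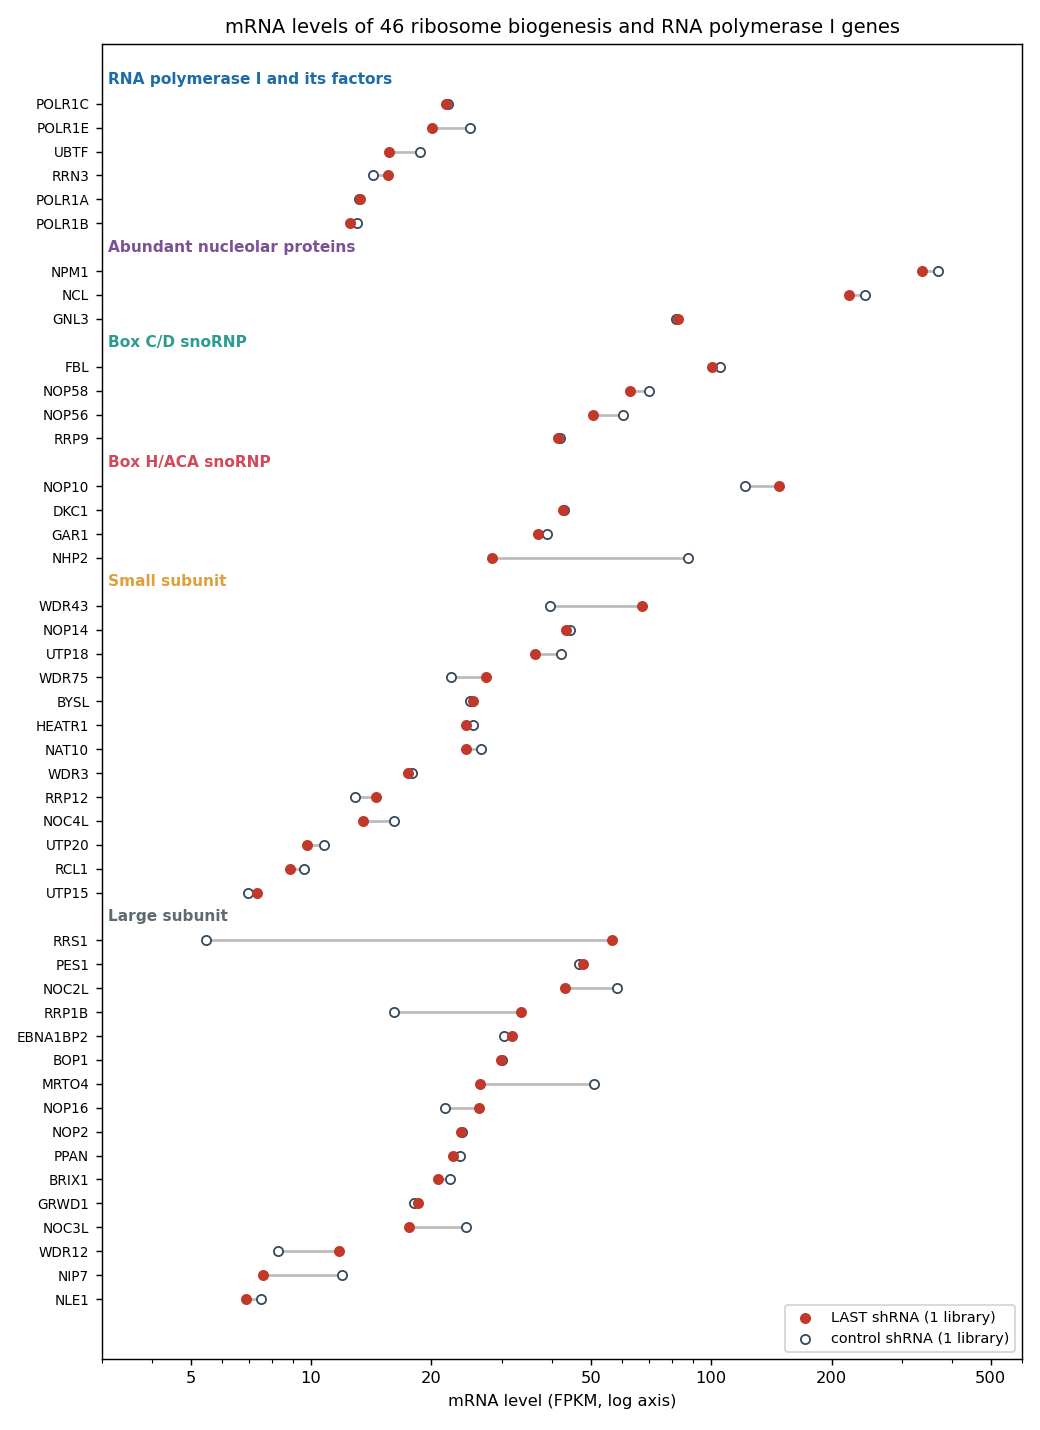
mRNA level (FPKM, log axis) of each of the 46 genes in LAST shRNA cells (filled red points) and in control shRNA cells (open points), 1 library each, grouped by role and ordered by the level in LAST shRNA cells; grey lines join the 2 values of a gene. Lines are short for most genes, and the longest line belongs to RRS1, at 56.5 in LAST shRNA cells and 5.46 in control shRNA cells.

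The polymerase genes stayed between the thresholds, 6 of 6, while 12.7% of all records were past them. POLR1A, which encodes the largest catalytic subunit, was at an FPKM of 13.3 in LAST shRNA cells and 13.2 in control shRNA cells (log2 ratio 0.00). POLR1B, the second-largest subunit, was at 12.5 in LAST shRNA cells and 13.0 in control shRNA cells (-0.05). POLR1C, a subunit shared with RNA polymerase III, was at 21.7 in LAST shRNA cells and 22.0 in control shRNA cells (-0.02). These subunits differed by at most 0.05 on the log2 scale between the libraries. POLR1E, the subunit also called PAF53, was at 20.06 in LAST shRNA cells and 25.01 in control shRNA cells, with the lowest ratio of the group (-0.30). The initiation factors pointed in opposite directions. RRN3, which brings the polymerase to its promoter, was at 15.6 in LAST shRNA cells and 14.3 in control shRNA cells (0.11), and UBTF, the HMG-box protein that coats active ribosomal DNA, was at 15.6 in LAST shRNA cells and 18.7 in control shRNA cells (-0.24).

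Abundant nucleolar proteins included the genes with the highest levels, NPM1 and NCL. None of the 3 passed the threshold, beside 12.7% of all records in either direction. NPM1, nucleophosmin, the main protein of the granular part of the nucleolus, was at an FPKM of 338 in LAST shRNA cells and 369 in control shRNA cells (-0.13). NCL, the RNA-binding protein nucleolin, was at 221 in LAST shRNA cells and 242 in control shRNA cells (-0.13). These were the highest and the next highest of the 46 in both libraries. NPM1 has 45 annotated pseudogenes, more than any other gene here, and reads can be shared with such copies. GNL3, the GTPase nucleostemin, was at 82.6 in LAST shRNA cells and 81.6 in control shRNA cells (0.02).

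Among the box C/D snoRNP proteins, all 4 ratios were below 0, beside 48.7% of all records. None passed the threshold, beside 12.7% of all records in either direction. FBL, fibrillarin, the methyltransferase of the particle, was at an FPKM of 100.5 in LAST shRNA cells and 105 in control shRNA cells (-0.07). Its scaffold partners NOP56 and NOP58 were at 50.6 in LAST shRNA cells against 60.4 in control shRNA cells (-0.25) and at 62.7 in LAST shRNA cells against 69.8 in control shRNA cells (-0.15). RRP9, which binds the U3 snoRNA, was at 41.4 in LAST shRNA cells and 41.8 in control shRNA cells (-0.01). Over FBL, NOP56 and NOP58, the highest level was 1.99 times the lowest in LAST shRNA cells and 1.74 times in control shRNA cells.

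In the box H/ACA snoRNP, 1 of 4 subunits was past the threshold, beside 12.7% of all records in either direction. NHP2, a small RNA-binding core protein of the particle and of telomerase, was 3.08-fold lower, at an FPKM of 28.4 in LAST shRNA cells and 87.5 in control shRNA cells (log2 ratio -1.59). In order of level it was 20th of the 46 in LAST shRNA cells and 5th in control shRNA cells. Its partners were all between the thresholds. DKC1, dyskerin, the pseudouridine synthase, was at 42.6 in LAST shRNA cells and 42.9 in control shRNA cells (-0.01), and GAR1, which joins the particle last, was at 37.0 in LAST shRNA cells and 38.8 in control shRNA cells (-0.07). NOP10, the smallest core protein, was at 148 in LAST shRNA cells and 122 in control shRNA cells (0.28). The 4 proteins are core parts of the same particle. The FPKM level of NHP2 was 0.665 times that of DKC1 in LAST shRNA cells and 2.04 times in control shRNA cells, and relative to GAR1 it was 0.767 times in LAST shRNA cells and 2.26 times in control shRNA cells. NHP2 thus stood above DKC1 and GAR1 in control shRNA cells only, and below NOP10 in both libraries. NHP2 (ENSG00000145912.8_1; chromosome 5, 177576461 to 177580968, minus strand, hg19) has 4 exons and 2 annotated pseudogenes, and its locus overlaps RMND5B on the other strand, which was at 1.55 in LAST shRNA cells and 1.82 in control shRNA cells.

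**Figure D2:**
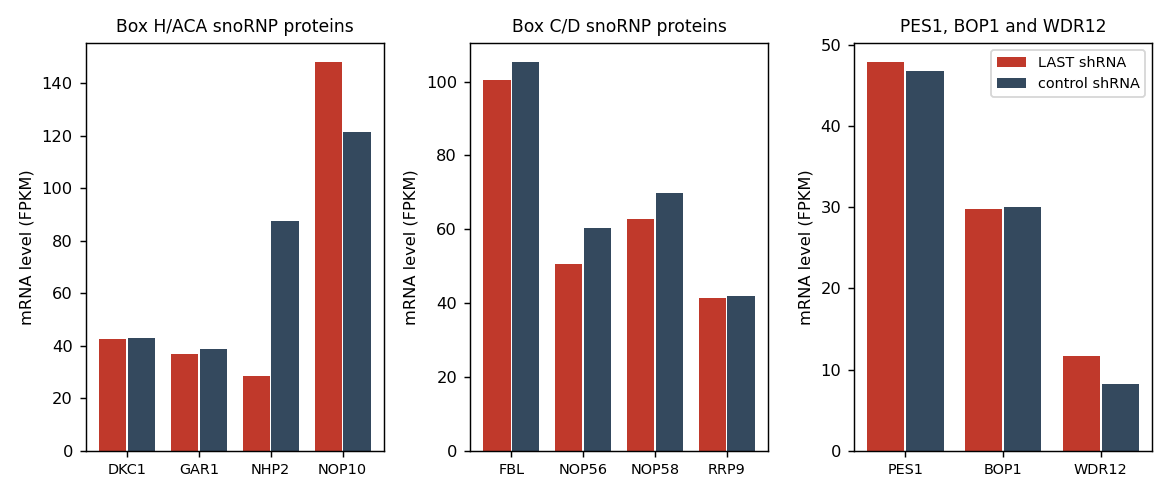
mRNA level (FPKM, linear axes from 0, 1 axis per panel) of the proteins of 3 complexes in LAST shRNA cells (red bars) and control shRNA cells (dark bars), 1 library each and no error bars. NHP2 is the only box H/ACA protein with a gap that is large against its level, at 28.4 in LAST shRNA cells and 87.5 in control shRNA cells.

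Small subunit factors gave 1 gene of 13 past the threshold in either direction (7.69%, beside 12.7% of all records), and it was higher. WDR43 encodes a WD-repeat protein of the complex that meets the nascent precursor first. Its level was 1.71-fold higher, at an FPKM of 67.3 in LAST shRNA cells and 39.4 in control shRNA cells (0.76). It held the 6th level of the 46 in LAST shRNA cells and the 16th in control shRNA cells. WDR43 (ENSG00000163811.11_2; chromosome 2, 29117509 to 29171088, plus strand, hg19) holds 3 snoRNA genes, SNORD53, SNORD53B and SNORD92. Other proteins of that complex among the 46 were between the thresholds. HEATR1, a large HEAT-repeat protein, was at 24.4 in LAST shRNA cells and 25.5 in control shRNA cells (-0.06). WDR75 was at 27.3 in LAST shRNA cells and 22.4 in control shRNA cells (0.28), and UTP15 was at 7.33 in LAST shRNA cells and 6.94 in control shRNA cells (0.07).

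The remaining small subunit factors ranged in ratio from -0.24 to 0.16. WDR3 and UTP18, WD-repeat proteins of a second early complex, were at an FPKM of 17.5 in LAST shRNA cells against 17.8 in control shRNA cells (-0.02) and of 36.3 in LAST shRNA cells against 42.2 in control shRNA cells (-0.21). UTP20, a very large scaffold protein, was at 9.75 in LAST shRNA cells and 10.8 in control shRNA cells (-0.13). NAT10, which acetylates cytidines of 18S ribosomal RNA, was at 24.4 in LAST shRNA cells and 26.6 in control shRNA cells (-0.12). These 4 ratios were below 0 and between the thresholds. RCL1, a processing factor known from yeast, was at 8.88 in LAST shRNA cells and 9.60 in control shRNA cells (-0.10). NOP14 and its partner NOC4L were at 43.4 in LAST shRNA cells against 44.4 in control shRNA cells (-0.03) and at 13.5 in LAST shRNA cells against 16.1 in control shRNA cells (-0.24). Late factors lay above 0, with BYSL, bystin, at 25.4 in LAST shRNA cells and 24.9 in control shRNA cells (0.03), and with RRP12, an export factor, at 14.5 in LAST shRNA cells and 12.9 in control shRNA cells (0.16).

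Large subunit factors held the widest range, from -0.92 to 3.16. They are also the largest role, and 4 of these 16 genes were past the threshold in either direction (25%), beside 12.7% of all records. RRS1, which in yeast helps to place the 5S particle in the large subunit, had the largest ratio of the 46. Its level was 10.4-fold higher, at an FPKM of 56.5 in LAST shRNA cells and 5.46 in control shRNA cells (3.16). It held the 8th level of the 46 in LAST shRNA cells and the lowest in control shRNA cells. RRS1, on chromosome 8, consists of 1 exon. RRP1B, a nucleolar protein that also binds chromatin, was 2.08-fold higher, at 33.4 in LAST shRNA cells and 16.1 in control shRNA cells (1.01). Its locus (ENSG00000160208.12_1) is on the plus strand of chromosome 21, 45079429 to 45115960 in hg19.

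MRTO4 and NIP7 were lower. MRTO4, a relative of the stalk protein P0 that holds its place on the precursor particle, was 1.93-fold lower, at an FPKM of 26.5 in LAST shRNA cells and 51.1 in control shRNA cells (-0.92). MRTO4 (ENSG00000053372.4_1) is on the plus strand of chromosome 1, 19578033 to 19586622 in hg19. Its start faces that of EMC1, 13 bases away in overlapping loci, and EMC1 was at 8.12 in LAST shRNA cells and 8.59 in control shRNA cells (-0.07). NIP7, an RNA-binding assembly factor, was 1.57-fold lower, at 7.60 in LAST shRNA cells and 11.9 in control shRNA cells (-0.59). Among genes past the threshold that ratio was the closest to it. Among genes between the thresholds the closest were WDR12 (0.46) and NOC3L (-0.46). NIP7 (ENSG00000132603.13_2; chromosome 16, 69373333 to 69377014, plus strand, hg19) has 3 annotated pseudogenes, and its 5′ end overlaps COG8 on the other strand. The COG8 records were at 4.20 and 4.72 in LAST shRNA cells and at 3.27 and 5.40 in control shRNA cells, and their part in the value of NIP7 was not tested.

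PES1, BOP1 and WDR12 form the PeBoW complex, which is needed to process the precursor of the large subunit. PES1 was at an FPKM of 47.8 in LAST shRNA cells and 46.7 in control shRNA cells (0.03), and BOP1 was at 29.8 in LAST shRNA cells and 30.1 in control shRNA cells (-0.01). WDR12 was at 11.7 in LAST shRNA cells and 8.26 in control shRNA cells (0.46). The highest level in the complex was 4.08 times the lowest in LAST shRNA cells and 5.65 times in control shRNA cells. NOC2L and NOC3L, which act in transport of the large subunit precursor, both had ratios below 0 and short of the threshold. NOC2L was at 43.1 in LAST shRNA cells and 58.3 in control shRNA cells (-0.43), and NOC3L was at 17.5 in LAST shRNA cells and 24.4 in control shRNA cells (-0.46).

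The other large subunit factors lay between -0.10 and 0.27. NOP2, a methyltransferase of 28S ribosomal RNA, was at an FPKM of 23.7 in LAST shRNA cells and 23.8 in control shRNA cells (-0.01). BRIX1, a founding member of a family of assembly factors, was at 20.8 in LAST shRNA cells and 22.2 in control shRNA cells (-0.09). EBNA1BP2, a nucleolar protein also known as EBP2, was at 31.7 in LAST shRNA cells and 30.3 in control shRNA cells (0.06). NLE1, which works with the giant ATPase that remodels the particle, was at 6.89 in LAST shRNA cells and 7.48 in control shRNA cells (-0.10), the lowest level of the 46 in LAST shRNA cells. By their hg19 loci, 2 of the 46 genes overlapped another record on the same strand and 13 on the opposite strand. PPAN, the human form of the fly protein Peter Pan, was at 22.7 in LAST shRNA cells and 23.6 in control shRNA cells (-0.05), and it shares its strand and locus with a read-through record, PPAN-P2RY11, at 5.73 in LAST shRNA cells and 5.47 in control shRNA cells. GRWD1, a WD-repeat protein, overlaps KCNJ14 on its strand and was at 18.5 in LAST shRNA cells and 18.1 in control shRNA cells (0.03). NOP16, a nucleolar assembly protein, was at 26.3 in LAST shRNA cells and 21.6 in control shRNA cells (0.27), while HIGD2A on the opposite strand was at 35.5 in LAST shRNA cells and 71.3 in control shRNA cells (-0.99). The library kit keeps strand, but the use of strand in counting is not given in the sources used here, so reads of such pairs may not be separated.

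**Figure D3:**
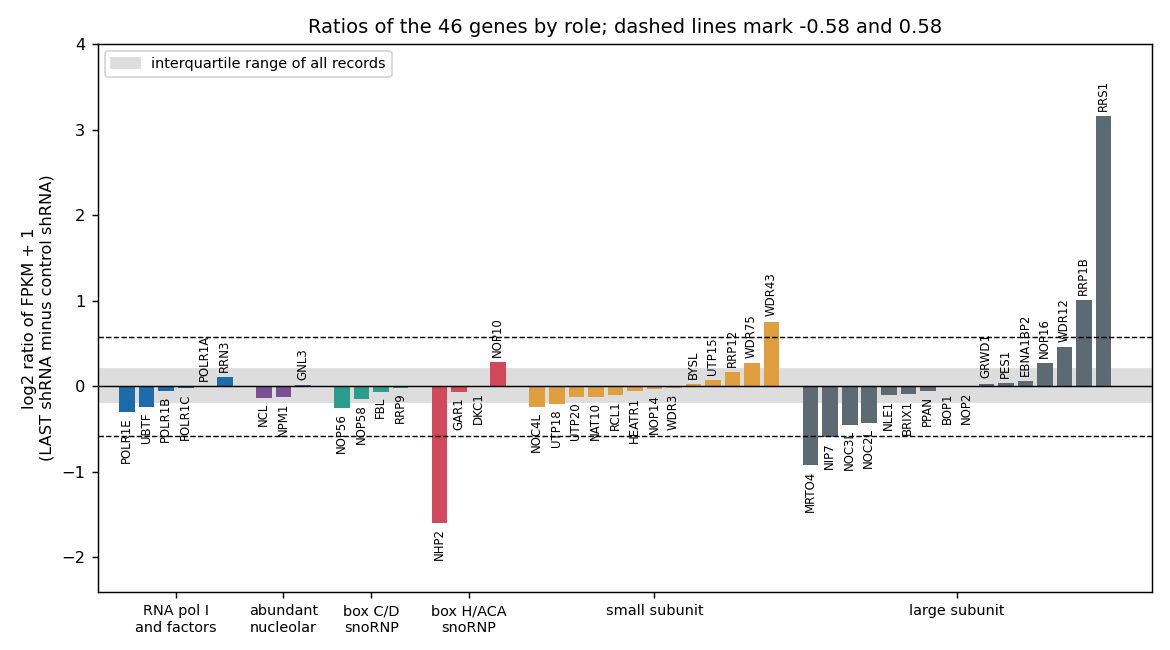
Log2 ratio (LAST shRNA minus control shRNA, FPKM + 1) of each of the 46 genes, grouped by role and ordered within a role; dashed lines mark -0.58 and 0.58, and the grey band is the interquartile range of all records. Bars of 40 genes end between the dashed lines, and those of NHP2, MRTO4, NIP7, WDR43, RRP1B and RRS1 end beyond them.

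The order of levels was largely kept between the libraries. Spearman's rho of the 46 FPKM values was 0.84, a description across genes that share both libraries. The place in the order moved by at most 2 for 31 genes. It moved by 5 or more for 10 genes, the largest moves being those of RRS1 (38 places), RRP1B (18), NHP2 (15), MRTO4 (12) and WDR43 (10).

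Of the 6 genes past the threshold, 4 had most of their transcript in 1 exon. By the GENCODE 29 annotation, matched by gene identifier for 45 of the 46, the largest exon held at least 50% of the longest coding transcript in 12 genes. Of these 12, MRTO4 and NIP7 were lower and RRP1B and RRS1 were higher. Over all records of that kind, 8.14% were lower and 9.03% were higher. Among the 33 genes with a largest exon under 50%, NHP2 (43.8%) was lower and WDR43 (45.9%) was higher, beside 3.11% and 3.89% over all records of that kind. RRS1 belongs to the 155 records with 1 exon in the longest coding transcript, of which 17.4% were lower and 25.8% were higher. The median number of exons was 14 for these genes and 9 for all records. Whether exon structure plays a part in the 6 ratios was not tested.

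**Figure D4:**
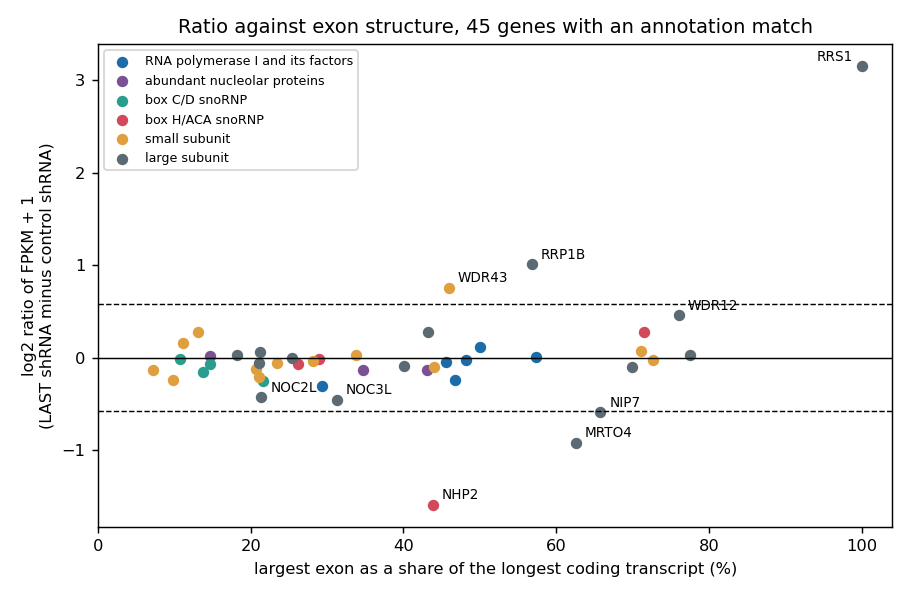
Log2 ratio (LAST shRNA minus control shRNA, FPKM + 1) against the share of the longest coding transcript held by its largest exon (%), for the 45 genes with an annotation match, coloured by role; dashed lines mark -0.58 and 0.58. The 33 genes left of 50% hold 2 points beyond the dashed lines, NHP2 and WDR43, and the 12 genes right of it hold 4.

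Genes with and without the E-box had median ratios equal to 2 decimals. The median log2 ratio was -0.05 for the 16 genes with CACGTG in the promoter and -0.05 for the 24 without. Of the 16, MRTO4 was lower and WDR43 was higher, and of the 24, NHP2 and NIP7 were lower and none was higher. Over all records, 5.88% were lower and 6.8% were higher, and these counts are too small to set the groups apart. The mRNA of MYC, which encodes c-Myc, was at an FPKM of 141 in LAST shRNA cells and 48.3 in control shRNA cells (1.53), beside 6.8% of all records that were higher. By RT-PCR and western blotting in HCT116 cells, the study instead reported unchanged c-Myc mRNA and protein after LAST knockdown. Why these measurements differ was not tested. RRS1 and RRP1B are among the 6 genes whose promoters were not analysed here. Of the 46 genes, 8 also host snoRNA genes in their loci, 26 in all, led by GNL3 with 6 and NOP56 with 5. Hosts had a median ratio of -0.04, as did the 38 other genes.

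A start within 1000 bases of another gene's start, on the opposite strand, was found for 11 of the 46. Of these neighbours, BYSL's neighbour MED20, a Mediator subunit, was at an FPKM of 4.81 in LAST shRNA cells and 2.37 in control shRNA cells (0.78), while BYSL differed by 0.03. The neighbour of RRP9, PARP3, was at 5.35 in LAST shRNA cells and 2.91 in control shRNA cells (0.70), while RRP9 differed by -0.01. Of the 6 genes past the threshold, MRTO4 and NIP7 had a neighbour of this kind (EMC1 and COG8), and neither neighbour was past it.

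Other genes of the pathway were read from 6 lists with 158 genes, of which 156 were in the table and 2, EXOSC6 and RIOX1, were not analysed here. Of the 156, 11 were lower (7.05%) and 2 were higher (1.28%), beside 5.88% and 6.8% of all records, with a median ratio of -0.05. Below 0 were 100 of them (64.1%), beside 48.7% of all records and 52.7% of all records with a mean FPKM of at least 10. The list genes were not filtered by level, so the last share is not matched to them. The 15 other polymerase I subunits and initiation factors had a median of -0.05 and none past the threshold in either direction, beside 12.7% of all records. Of the 16 RNA helicases, 2 were lower (12.5%, beside 5.88% of all records) and none was higher (beside 6.8%). DDX21, a nucleolar helicase that also acts at polymerase II genes, was 2.27-fold lower, at an FPKM of 63.4 in LAST shRNA cells and 144 in control shRNA cells (-1.17). DDX18, another nucleolar helicase, was at 19.1 in LAST shRNA cells and 30.5 in control shRNA cells (-0.65).

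The 43 other large subunit factors had 5 lower genes (11.6%, beside 5.88% of all records), none higher (beside 6.8%) and a median of -0.13. SBDS, the protein mutated in Shwachman-Diamond syndrome, which helps to free the new subunit for translation, was at an FPKM of 16.1 in LAST shRNA cells and 37.9 in control shRNA cells (-1.19). RPF1, a relative of BRIX1, was at 40.8 in LAST shRNA cells and 67.6 in control shRNA cells (-0.71). NIFK, which binds the proliferation marker Ki-67, was at 23.1 in LAST shRNA cells and 36.8 in control shRNA cells (-0.65). SPATA5, an ATPase that strips factors from the particle, was at 2.37 in LAST shRNA cells and 4.37 in control shRNA cells (-0.67), and MAK16, named after its value was seen, was at 10.1 in LAST shRNA cells and 16.1 in control shRNA cells (-0.62).

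The 41 other small subunit factors had a median of -0.02. Of them, 1 was lower (2.44%, beside 5.88% of all records) and 1 was higher (2.44%, beside 6.8%). FCF1, a PIN-domain protein, was lower, at an FPKM of 6.20 in LAST shRNA cells and 15.6 in control shRNA cells (-1.20). EMG1, a methyltransferase of 18S ribosomal RNA, was higher, at 14.3 in LAST shRNA cells and 8.96 in control shRNA cells (0.62). In the nuclear exosome list of 15 genes, with a median of 0.00, 1 was higher (6.67%, beside 6.8% of all records) and none was lower. It was MPHOSPH6, a protein bound to the exosome, at 29.4 in LAST shRNA cells and 18.1 in control shRNA cells (0.67). The list of 26 snoRNP assembly and nucleolar organisation genes had a median of -0.10, 3 lower genes (11.5%, beside 5.88% of all records) and none higher (beside 6.8%). ZNHIT6, a box C/D assembly factor, was at 1.75 in LAST shRNA cells and 4.49 in control shRNA cells (-0.998). NUCKS1 was at 44.7 in LAST shRNA cells and 76.6 in control shRNA cells (-0.76). It is a nuclear chromatin protein that the name of the list does not describe. The 3 lower genes here, and the 11 lower genes of all lists together, include it. RPP38, a subunit of RNase P and RNase MRP, was at 4.54 in LAST shRNA cells and 7.54 in control shRNA cells (-0.62). Of the 70 list genes with a largest exon of at least 50% of the transcript, 11 were past the threshold in either direction (15.7%), beside 17.2% of all records of that kind.

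**Figure D5:**
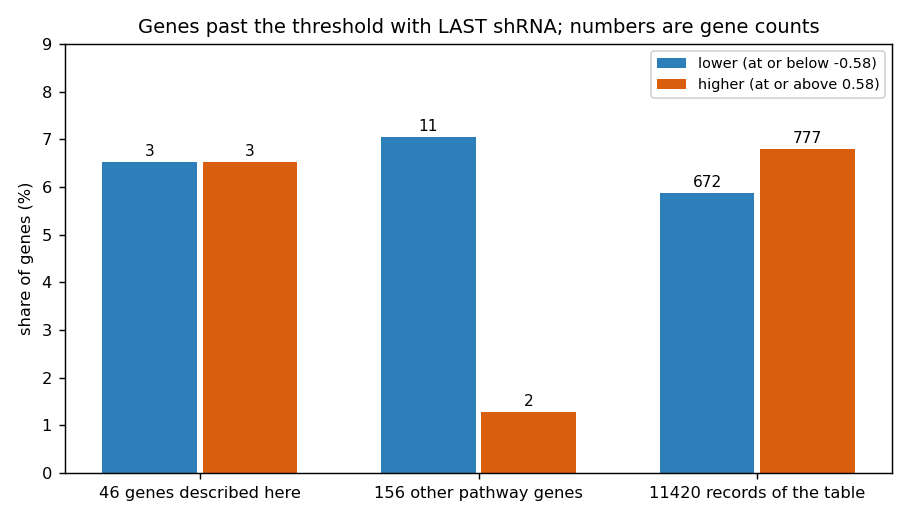
Share of genes (%) that were lower (blue) or higher (orange) in LAST shRNA cells among the 46 genes, the 156 other pathway genes and all 11420 records, with gene counts above the bars. The 46 genes have equal bars of 3 genes each (6.52%), and the other pathway genes have 11 lower and 2 higher.

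Epithelial markers of the labelled cell line were found in part. Of 8 colorectal epithelial markers, 6 were in the table, with a summed FPKM of 853 in LAST shRNA cells and 811 in control shRNA cells, and EPCAM was at 139 in LAST shRNA cells and 137 in control shRNA cells. CDX2, an intestinal transcription factor, was low, at 1.02 in LAST shRNA cells and 1.58 in control shRNA cells, and VIL1 and CEACAM5 were not analysed here. Of 4 immune markers CD68 was in the table, at 3.26 in LAST shRNA cells and 1.58 in control shRNA cells, and of 5 fibroblast markers COL1A1, at 1.90 in LAST shRNA cells and 1.32 in control shRNA cells. The remaining markers of these classes and the 3 endothelial markers were not analysed here. Of 4 genes of neural cells and HEK293T, the usual packaging line of lentivirus, NEFL and NEFM were not analysed here. TUBB3 was at 23.0 in LAST shRNA cells and 7.03 in control shRNA cells and ENO2 was at 9.67 in LAST shRNA cells and 6.68 in control shRNA cells. Their part in the ratios above was not tested. Summed FPKM over the table was 155390 in LAST shRNA cells and 154798 in control shRNA cells, and the read number behind the values is not known.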

How the data were processed

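mRNA-seq was done on HCT116 cells 96 hr after lentiviral infection, with 1 library from LAST shRNA cells and 1 from control shRNA cells, made with a KAPA stranded kit. The submitters' processing notes name hg19 as the genome build and StringTie, HISAT2, FastQC and cutadapt as tools. For versions, settings and annotation: not given in the sources used here. The authors deposited FPKM values per gene, and in every record the higher value was at least 0.5. Low values gave no counts, so depth is unknown, no counting interval can be given and FPKM values were compared without a test. The authors' scaling to library size makes each value relative to the other genes of its library.

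Libraries were grouped by their labels. Log2 ratios were computed with a pseudocount of 1, which understates differences of weak genes, and thresholds of -0.58 and 0.58. The members, the role groups and the lists of other pathway genes were chosen with earlier results of these data known. The text names every member, up to 4 genes per direction of each list past the threshold with the largest ratios (FPKM of 1 or more in either library), and marker genes; neighbours, overlapping genes and MYC were named after their values were seen. Positions are hg19 as deposited. Exon structure, snoRNAs and pseudogenes came from GENCODE 29 (GRCh38), joined by gene identifier, and promoters from RefSeq (GRCh38.p14), joined by symbol. Counts and medians were recomputed with pseudocounts of 0.1 and 0.5, 2 filters, 3 scalings, 2 exclusions of members and a threshold of 1. The ratio and threshold code was tested on simulated data. Computations used pandas 2.3.3 and numpy 2.4.6 under Python 3.11.15, and plots used matplotlib 3.10.9.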

Additional observations from a re-analysis of the deposited data

How the results depend on the processing

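Under pseudocounts of 0.1 and 0.5, filters on low FPKM, the 3 other scalings and the removal of overlapping or single-exon genes, the counts of lower and higher members stayed at 2 to 3, and the median ratio of the 46 stayed between -0.05 and -0.03. At a threshold of 1, NHP2 was the 1 lower member, and RRP1B and RRS1 were the 2 higher ones. Of all records, 2.5% were lower and 2.78% were higher at that threshold. Among members with a largest exon below 50% of the transcript, an alternative chosen after seeing the data, 1 was lower and 1 was higher, since 13 members were not used. Over all records of that kind, 3.11% were lower and 3.89% were higher. Of all records, 8.75% were lower and 10.9% higher with a pseudocount of 0.1, and 8.56% were lower and 10.5% higher as TPM, against 5.88% and 6.8% with a pseudocount of 1 on FPKM. A pseudocount of 1 was also added to TPM. TPM values are larger than FPKM values here, so it weighs less, as a smaller pseudocount does. NIP7 ranged from -0.65 to -0.58 over these settings, and all 6 ratios kept their direction. None of the 36 recomputed medians of roles and lists moved by 0.1, but they were recomputed with the 3 scalings only. Those shifted the median of all records by just -0.008, -0.004 and 0.005, so little movement was possible. No paired analysis was possible because each group has 1 library. Differences between 2 libraries cannot be told apart from variation between cultures, and the unknown depth limits the weaker genes most.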
